A study of Rattus rattus with 8 samples.

Results

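Collagens are the trimeric proteins that give the extracellular matrix its strength, and the table of gene counts held 44 rows, for 43 chain symbols, whose gene name has the form of a collagen chain, out of 30957 rows in all. Each row is 1 gene encoding 1 alpha chain, and rows were chosen by symbol alone. The libraries came from cultures enriched for neonatal rat cardiomyocytes, heart muscle cells of SD pups 1 to 3 days old, kept for 24 h with 0.2 mM AraC, a blocker of DNA synthesis, then without serum, and then for 48 h at 1% oxygen. The labels give the organism as Rattus rattus and the strain as SD. Cells were sorted on the DNA dye Hoechst 33342 (2 µg/mL) into a diploid (2n) and a tetraploid (4n) fraction, with 4 libraries each. Both fractions carry the AraC, the serum starvation and the hypoxia, and no normoxic group was analysed here. The sort was on DNA content and not on a cell type marker, and the labels do not separate cells with 2 nuclei, cells about to divide and pairs of stuck cells within 4n.

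In the heart most fibrillar collagen is made by fibroblasts, and type I and type III are the main fibril formers. Chains fold as trimers in the endoplasmic reticulum with the help of hydroxylases and chaperones, are exported as procollagen, trimmed outside the cell and cross-linked. Type IV collagen is different: it forms the sheet-like network of basement membranes, which surround each cardiomyocyte and underlie endothelium. Its chains assemble into a few fixed trimers, of which alpha-1 with alpha-2 is the widespread one and alpha-3 with alpha-4 and alpha-5 the one of kidney, lung and other specialised membranes.

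Of 31 chains with enough counts to be tested, 25 had a negative log2 fold change of 4n over 2n, but none of these differences passed edgeR's test across all genes without the pairing of libraries, and 2 scarce chains passed with it. Col4a4, a chain of the specialised basement membrane trimer, rose in 4n, and it was the only chain that passed in edgeR without the pairing. Col18a1, a basement membrane chain, had all 4n libraries above all 2n libraries, which held for 7.68% of all genes. It passed in DESeq2 but not in edgeR. These calls are from fits of all libraries.

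Total counts lay between 14783521 and 21033772 per library. The libraries differed in what else they held. Genes of the mitochondrial chromosome took 2.87% to 3.82% of counts in 2n, 3.71% in 4n replicate 1 and 24.1% to 25.9% in the other 4n libraries, so 4n replicate 1 stood apart, and results are given with and without it where that matters. The labelled cell type was checked on 12 cardiomyocyte markers. Their summed level, in counts scaled to a common library size (CPM), was 989.8, 510.0, 769.8 and 968 in 2n replicates 1 to 4 and 4237, 8166, 31188 and 11392 in 4n, and none of the 12 was at 0 in all libraries. The 10 fibroblast markers other than collagens summed to 7533, 5561, 7949.6 and 7521 CPM in 2n and 5597, 4997, 3849 and 4778 CPM in 4n. They were above the cardiomyocyte sum in all 4 of the 2n libraries and in 4n replicate 1, and below it in the other 4n libraries. These sums are over different genes and do not measure shares of cells. In libraries of sorted pools, fewer cells of a type and less RNA per cell cannot be told apart.

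Of the 44 rows, 31 had enough counts to be tested, and 13 did not. A chain that is scarce in 1 fraction can enter the test through the other, so counts over the tested chains describe them and are no test. Col1a2, which encodes the partner of Col1a1 in type I collagen, Col15a1 and 1 of the 2 rows named Col23a1 had 0 counts in all 8 libraries. A count of 0 allows up to 3 counts, or 0.130 to 0.223 CPM depending on the library, for counting error only. Col1a2 is thus listed at 0 beside the most abundant chain, its own partner, and whether this comes from the counting was not tested. A separate locus on the same chromosome as Col15a1, described in the table as a type XV alpha-1 chain-like gene, LOC100909752, held 12.1, 17.4, 10.2 and 14.7 CPM in 2n and 15.6, 18.4, 5.01 and 12.6 CPM in 4n. The other 10 untested rows were Col2a1, Col6a4, Col6a5, Col9a1, Col10a1, Col19a1, Col25a1, Col26a1, Col28a1 and the other Col23a1 row, with at most 11 counts in any library. Among these are the main chains of cartilage, Col2a1, Col9a1 and Col10a1. Col4a3 and Col21a1, which belong to the lists of chains, matched no symbol and were not analysed here by name.

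On the deposited FPKM scale, which divides by gene length and lets chains be set side by side, the chains differed widely in level. Col1a1 stood highest, with 5266 ± 674 FPKM in 2n (SD, n = 4), followed by Col3a1, which forms type III fibrils, with 4273 ± 826 FPKM. Their ranges over the 2n libraries overlapped. Next were Col4a1 with 1951 ± 175 FPKM and its partner Col4a2 with 1189 ± 139 FPKM. The first 2 chains of type VI collagen, which forms beaded microfilaments around cells, were nearly level, at 1071 ± 98.1 FPKM for Col6a1 and 993 ± 142 FPKM for Col6a2, while Col6a3 stood at 241 ± 50.6 FPKM. The type V chains, which start and limit fibril growth, were at 957 ± 94.9 FPKM for Col5a2, 689 ± 168 FPKM for Col5a1 and 109 ± 16.7 FPKM for Col5a3. The lowest mean of a tested chain in 2n was 0.207 FPKM, for Col22a1, and Col4a4 had 1.46 ± 0.557 FPKM and Col4a6 1.34 ± 0.290 FPKM in 2n. In 4n the mean of Col1a1 was 3721 ± 1602 FPKM, that of Col3a1 2602 ± 961 FPKM, and that of Col4a1 1324 ± 492 FPKM (SD, n = 4), so the same 3 chains led in both fractions. FPKM values are per total count, so the mitochondrial share of 4n replicates 2, 3 and 4 lowers them.

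**Figure D1:**
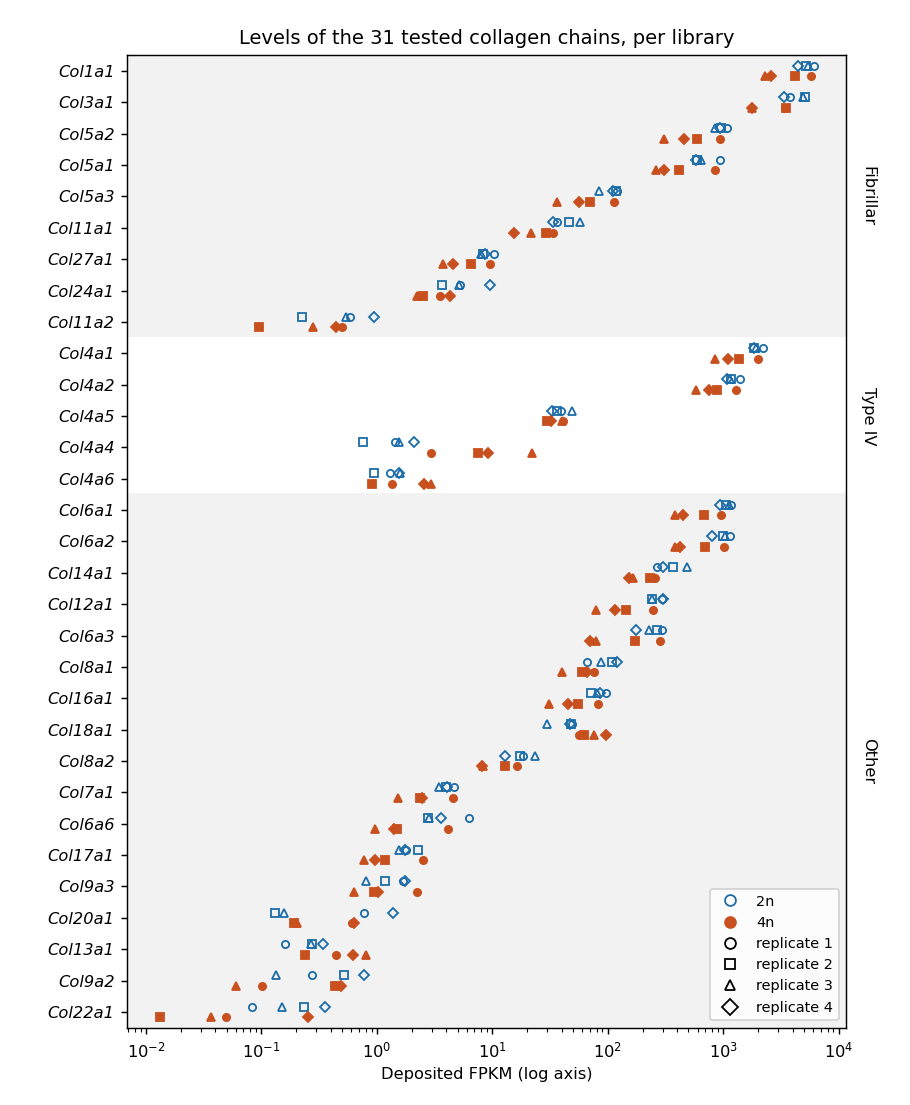
Deposited FPKM (log axis) of each of the 31 tested collagen chains, 1 point per library, open for 2n and filled for 4n, with 1 symbol per replicate number. Col1a1, Col3a1, Col4a1 and Col4a2 lie at the right, and Col4a4 has its 4 filled points to the right of the open ones.

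All 44 rows together took 10.4%, 9.76%, 9.89% and 8.26% of all counts in 2n replicates 1 to 4, and 9.58%, 7.13%, 4.05% and 4.64% in 4n. The 2n libraries ran from 8.26% in replicate 4 to 10.4% in replicate 1, 4n replicate 1 lay among them, and 4n replicates 2, 3 and 4 lay below all of them. With mitochondrial genes left out of the total, the shares were 10.8%, 10.1%, 10.2% and 8.59% in 2n and 9.95%, 9.50%, 5.47% and 6.11% in 4n, and 4n replicate 2 then also lay in the 2n range. Fibrillar chains took 6.10% ± 0.681 of all counts in 2n against 4.03% ± 1.66 in 4n (means ± SD of 4 libraries), type IV chains 1.90% ± 0.182 and 1.34% ± 0.463, and the other chains 1.60% ± 0.127 and 0.976% ± 0.425. With mitochondrial genes left out the differences were smaller. Fibrillar chains then took 6.30% ± 0.682 and 4.93% ± 1.57, type IV chains 1.96% ± 0.182 and 1.64% ± 0.366, and the other chains 1.65% ± 0.125 and 1.19% ± 0.378. These sums are a description, with no test. The fibroblast markers took 0.776% ± 0.112 of all counts in 2n and 0.450% ± 0.127 in 4n, and the cardiomyocyte markers 0.0880% ± 0.0245 and 1.19% ± 0.951 (means ± SD of 4 libraries). Without mitochondrial genes these were 0.802% ± 0.117 and 0.554% ± 0.0905 for fibroblast markers, and 0.0910% ± 0.0254 and 1.56% ± 1.33 for cardiomyocyte markers. The part of either in the collagen shares was not tested.

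**Figure D2:**
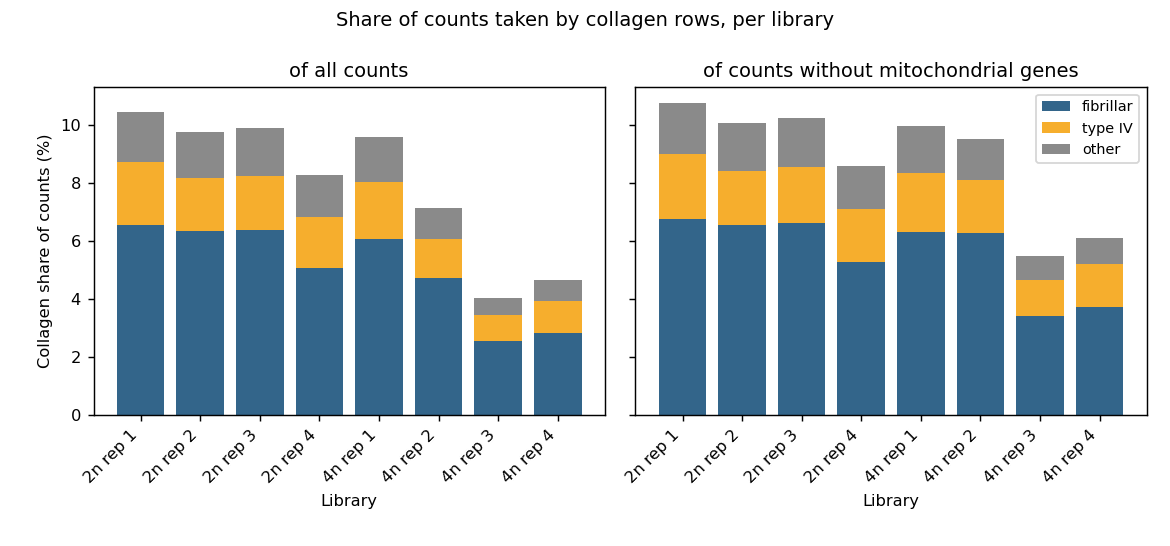
Share of counts in percent taken by fibrillar, type IV and other collagen rows in each library, as a share of all counts (left) and of counts without mitochondrial genes (right). The bars of 4n replicates 3 and 4 are the lowest in both panels, and that of 4n replicate 1 stands in the 2n range.

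The question put to each chain was whether its level differed between the fractions. Across 12983 genes, 1 collagen chain of 31 tested was higher in 4n and 0 were lower without the pairing (edgeR, quasi-likelihood, p under 0.05 after adjustment by the method of Benjamini and Hochberg), where 2.67% of all genes were higher and 0.0077% lower. Before adjustment, 5 chains with p under 0.05 were lower and 3 higher, against 4.82% and 12.6% of all genes. With the replicate number as a block, which compares the 2 libraries of each number, 0 chains were higher and 2 were lower, against 4.27% and 0.608% of all genes, and before adjustment 18 chains were lower (13% of all genes) and 4 higher (16.9%). DESeq2 was run without the count filter, on 18337 genes, and gave a p for 41 chains. It called 2 chains higher (5.05% of these genes) and 0 lower (0.442%), with 8 lower (4.49%) and 3 higher (9.88%) before adjustment. Limma-voom called 0 chains and 0% of all genes in either direction, with 6 chains lower (5.32% of all genes) and 3 higher (11.2%) before adjustment. Of the 31 chains, 25 had a log2 fold change below 0, against 51.8% of all genes, and 20 were lower in 4n in 4 of 4 pairs, against 19.7%, while 5 were higher in 4 of 4, against 20.2%. The median over the 31 was -0.44 on the log2 scale, and over all genes tested -0.013.

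**Figure D3:**
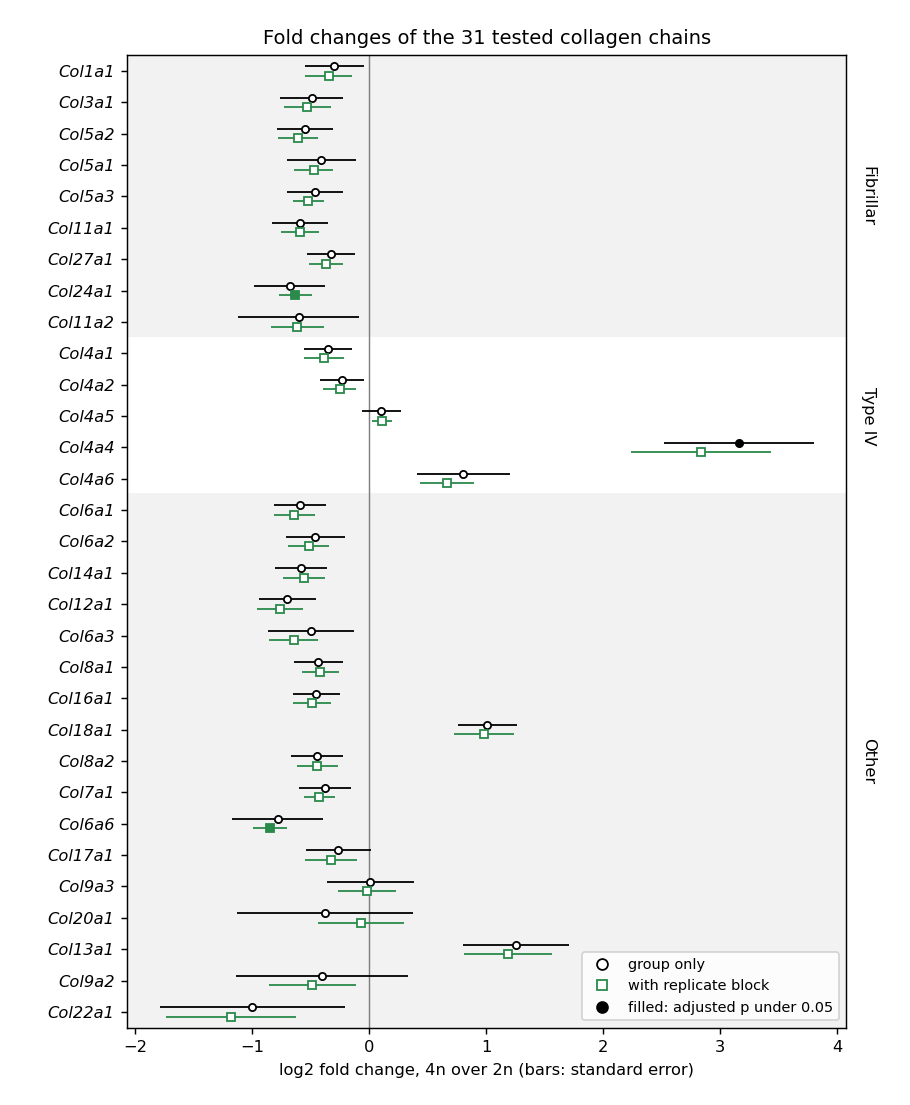
Log2 fold change of 4n over 2n with its standard error for each of the 31 tested chains, from the fit with the group alone (circles) and with the replicate block (squares), filled where the adjusted p is under 0.05. Only Col4a4 has a filled circle, and only Col24a1 and Col6a6 have a filled square.

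Among fibrillar collagens 0 of 9 tested chains passed without the block, and 1, Col24a1, with it. Their log2 fold changes lay between -0.68 and -0.30, with a median of -0.49, and 8 of the 9 were lower in 4 of 4 pairs. Col1a1, the alpha-1 chain of type I collagen on chromosome 10 from 82745801 to 82762789 (Rnor_6.0), had 31821, 27499, 29427 and 23986 CPM in the 2n libraries of replicates 1 to 4 and 30242, 28269.9, 16271 and 16942 CPM in the 4n libraries. The groups overlapped: 4n replicates 1 and 2 lay in the 2n range, and 4n replicates 3 and 4 below it (log2 fold change -0.30 ± 0.25 SE, edgeR adjusted p = 0.585). Col3a1, on chromosome 9 from 52023295 to 52059217, had 16370.3, 21978, 21740.4 and 14841 CPM in 2n and 14535, 19134, 10158 and 9474 CPM in 4n. Again 4n replicates 3 and 4 were the lowest of the 8 libraries (-0.49 ± 0.27, edgeR adjusted p = 0.382). Its neighbour Col5a2, 33293 bases away, had 4377, 3887, 3576 and 3926 CPM in 2n and 3744, 3090.1, 1675 and 2280.3 CPM in 4n. Its 4n replicate 1 was the only 4n library inside the 2n range (-0.55 ± 0.24, edgeR adjusted p = 0.281, 0.0739 with the block).

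Col5a1 had 5594, 3576, 4003 and 3574 CPM in 2n and 5059, 3187, 2088 and 2275 CPM in 4n, with replicate 1 highest in both fractions. Col5a3, a rarer type V chain, had 660.1, 647, 476 and 630.2 CPM in 2n and 610.4, 495, 265 and 380.2 CPM in 4n. Col11a1, which co-assembles into fibril cores, had 249, 326, 416 and 241 CPM in 2n and 229, 257, 201 and 133 CPM in 4n. Without the block the 3 chains had log2 fold changes of -0.41 ± 0.30, -0.46 ± 0.24 and -0.59 ± 0.24 (SE), and edgeR adjusted p of 0.513, 0.363 and 0.252. The scarce Col24a1, a minor fibrillar chain of bone and cornea, had 19.3, 13.7, 19.5 and 36.1 CPM in 2n and 12.9, 11.7, 11.02 and 19.6 CPM in 4n. Each 4n library was below its 2n partner, though the groups overlapped, and Col24a1 fell with the block by 0.63 ± 0.14 (SE, edgeR adjusted p = 0.0491, and 0.295 without it). Replicate 4 was highest in both fractions. The blocked call was lost without the pair of replicate 2, 3 or 4 (edgeR adjusted p = 0.0960, 0.0759 and 0.266), and without the 2n library of replicate 4 the log2 fold change of the fit without the block was -0.34, against -0.68 with all libraries. Col27a1 and Col11a2 had log2 fold changes of -0.33 ± 0.21 and -0.60 ± 0.52 (SE, edgeR adjusted p = 0.447 and 0.589).

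The type IV chains had fold changes of both signs. Their median log2 fold change was 0.10 over 5 tested chains, of which 1 was called, and the sign of this median depended on the scaling. The widespread pair Col4a1 and Col4a2, which lie next to each other on chromosome 16, was lower in 4n in 4 of 4 pairs of libraries. Col4a1 had 13071, 11015, 11887 and 11226 CPM in 2n and 11764, 10388, 6714 and 8069.9 CPM in 4n. Col4a2 had 6179.6, 5222, 5262 and 4904 CPM in 2n and 5714, 5008, 3495 and 4161 CPM in 4n. In both, 4n replicate 1 was within the 2n range and 4n replicates 3 and 4 were below it, while 4n replicate 2 was below it in Col4a1 alone, and neither passed (-0.35 ± 0.20 and -0.23 ± 0.19 SE, edgeR adjusted p = 0.410 and 0.561). Col4a5, an X-linked chain shared by both specialised trimers, had 228, 216, 299 and 199 CPM in 2n and 237, 225, 315 and 236 CPM in 4n. Its log2 fold change was 0.10 ± 0.17 (SE, edgeR adjusted p = 0.788), and it was -0.14 with total count scaling, where the median of all genes was itself at -0.25. Col4a6, the other X-linked chain, had means of 6.09 ± 1.39 CPM in 2n against 10.6 ± 6.06 CPM in 4n (SD of 4 libraries) and was highest in 4n replicates 3 and 4, at 17.5 and 14.03 CPM (0.80 ± 0.40 SE, edgeR adjusted p = 0.337).

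Col4a4 was the chain that rose. It lies on chromosome 9 from 88232455 to 88357182 (Rnor_6.0) and encodes the alpha-4 chain of the specialised basement membrane trimer. It had 17.6, 9.33, 19.7 and 26.6 CPM in the 2n libraries of replicates 1 to 4 and 35.6, 117, 362 and 139 CPM in the 4n libraries, which is 288, 215, 372 and 563 counts and 663, 1575, 5064 and 1900.0 counts. The groups did not overlap, which held for 7.68% of all genes in this direction, and 4n replicate 1, the 4n library nearest to 2n, was still above every 2n library. Its 2n mean was 18.3 ± 7.13 CPM and its 4n mean 163 ± 139.8 CPM (SD of 4 libraries), a log2 fold change of 3.16 ± 0.64 (SE), or 8.92-fold (edgeR adjusted p = 0.0368). With the block the log2 fold change was 2.84 ± 0.60 (SE) and no longer passed (edgeR adjusted p = 0.0627). The call was also lost in edgeR on leaving out any 1 of the 2n libraries or 4n replicate 2 or 4, with log2 fold changes from 2.94 to 3.39 and adjusted p from 0.0522 to 0.137. In those fits other than the one without 4n replicate 2, edgeR called no gene of the table. Without 4n replicate 1 it was 3.49 ± 0.47 (SE, edgeR adjusted p = 0.00471), and without 4n replicate 3 2.41 ± 0.47 (SE, edgeR adjusted p = 0.0416).

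The gene for the partner chain, alpha-3, lies head to head with Col4a4 in mammals. The table has a row there, LOC100911572, described as an alpha-3(IV) chain-like gene, on chromosome 9 from 88357556 to 88485830, with 373 bases between it and Col4a4. It is outside the symbol rule and was picked after its values were seen. It had 3.90, 2.30, 3.92 and 4.64 CPM in 2n and 7.95, 7.96, 43.4 and 16.4 CPM in 4n, with 4n replicate 3 highest. Again the groups did not overlap, which held for 7.68% of all genes in this direction. Its log2 fold change was 2.36 ± 0.56 (SE, edgeR adjusted p = 0.0642) without the block. With the block it rose by 2.05 ± 0.40 (SE, edgeR adjusted p = 0.0491), and without 4n replicate 1 by 2.61 ± 0.52 (SE, edgeR adjusted p = 0.0214). The blocked call was lost without the pair of replicate 2 or 4 (edgeR adjusted p = 0.129 and 0.246), where edgeR called no gene. A separate row of the same symbol, elsewhere on chromosome 9, had 0 counts in all libraries. The strand setting of the counting was not given in the sources used here. On the FPKM scale Col4a4 in 4n, at 10.4 ± 8.22 FPKM (SD, n = 4), was still far below Col4a1.

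Col18a1 encodes type XVIII collagen, a heparan sulfate proteoglycan of basement membranes whose end piece is endostatin. It had 222, 221, 141 and 220.2 CPM in the 2n libraries of replicates 1 to 4 and 253, 358, 463 and 546 CPM in the 4n libraries. All 4 of the 4n libraries were above all 2n libraries, with 4n replicate 4 highest and 2n replicate 3 lowest. Such a separation in this direction held for 7.68% of all genes. Its 2n mean was 201 ± 40.3 CPM and its 4n mean 405 ± 127 CPM (SD of 4 libraries), with a log2 fold change of 1.01 ± 0.25 (SE), and it did not pass (edgeR adjusted p = 0.0695, and 0.0779 with the block). It passed without 4n replicate 1 (1.18 ± 0.21 SE, edgeR adjusted p = 0.0121) and in DESeq2 (adjusted p = 0.00447). Col13a1, a transmembrane chain found at the neuromuscular junction, was near the limit of detection, at 0.713 ± 0.214 CPM in 2n and 1.73 ± 0.915 CPM in 4n (means ± SD of 4 libraries, log2 fold change 1.25 ± 0.45 SE, edgeR adjusted p = 0.203).

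Markers of other cell types also differed between the libraries. All 12 cardiomyocyte markers rose, with a median log2 fold change of 4.37. All 12 passed without the block (edgeR), against 2.67% of all genes, and 11 of the 12 with it, against 4.27%. Their sums, given above, were highest in 4n replicate 3, where Col4a4 and LOC100911572 were highest, and lowest among 4n libraries in replicate 1, where Col4a4 was lowest. Of 7 endothelial markers found, none at 0 in all libraries, 0 passed without the block in edgeR. At an unadjusted p under 0.05, 5 were higher, against 12.6% of all genes. With the block 5 were called higher, against 4.27% of all genes. Without it 2 of the 7 had log2 fold changes below 0. The sums of the 7 were 127, 112, 103 and 185 CPM in 2n and 154, 147, 135 and 519 CPM in 4n. This sum was highest in 4n replicate 4, where Col18a1 was highest. Among 4n libraries it was lowest in replicate 3, where Col18a1, at 463 CPM, was higher than in replicates 1 and 2. The median log2 fold change of the 7 markers was 2.83 without the block. Their medians within pairs, on log2(CPM + 0.1), were 1.36, 2.50, 2.71 and 3.19 for replicates 1 to 4, and the differences of Col18a1 were 0.19, 0.70, 1.72 and 1.31. The sum and the pair medians thus ordered the replicates differently. Of 10 fibroblast markers 0 passed without the block (edgeR, 3 lower before adjustment, against 4.82% of all genes). Lum and Pdgfra fell with the block (edgeR adjusted p = 0.0387 and 0.0346), where 0.608% of all genes were lower. The part of these cell types in the levels of any chain was not tested.

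**Figure D4:**
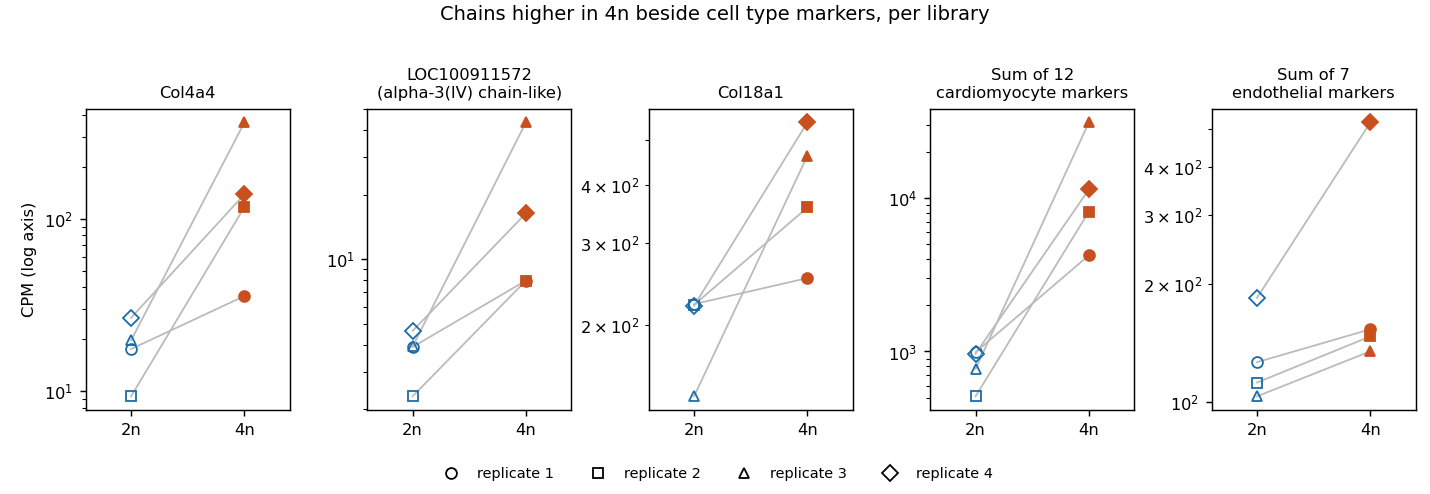
CPM (log axes, 1 scale per panel) of Col4a4, the neighbouring alpha-3(IV) chain-like row and Col18a1 in each library, beside the summed CPM of 12 cardiomyocyte and 7 endothelial markers, with lines joining libraries of the same replicate number. In the first 4 panels all 4n points lie above all 2n points, and replicate 3 is highest in 4n for Col4a4, LOC100911572 and the cardiomyocyte markers.

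The type VI chains were lower in 4n in 4 of 4 pairs for 4 of 4 tested chains, with a median log2 fold change of -0.54. Col6a1 had 3295, 2995, 3258 and 2738 CPM in 2n and 2690.3, 2461, 1429.5 and 1578 CPM in 4n, so the groups did not overlap, which held for 3.69% of all genes in this direction (-0.59 ± 0.22 SE, edgeR adjusted p = 0.221). Col6a2, its neighbour on chromosome 20, had 3799, 3364, 3565 and 2750.4 CPM in 2n and 3375, 2998, 1695 and 1738 CPM in 4n. Col6a3, the longest of the common chains, had 3249, 3005, 2604 and 2029 CPM in 2n and 3153, 2433, 1171 and 966 CPM in 4n. In these 3 chains the 4n libraries of replicates 3 and 4 were below all others, and none passed (edgeR adjusted p = 0.386 for Col6a2 and 0.524 for Col6a3, with log2 fold changes of -0.46 ± 0.25 and -0.50 ± 0.37 SE). Col6a6, a scarce chain that can replace alpha-3, had 38.2, 17.3, 17.9 and 22.7 CPM in 2n and 25.3, 11.7, 7.87 and 10.7 CPM in 4n. Each 4n library was below its 2n partner, and with the block Col6a6 fell by 0.85 ± 0.15 (SE, edgeR adjusted p = 0.0318). Without the block it did not pass (-0.78 ± 0.39 SE, edgeR adjusted p = 0.338), with replicate 1 highest in both fractions, and the value was -0.47 without the 2n library of replicate 1 and -1.25 without its 4n library (edgeR adjusted p = 0.576 and 0.0465). The blocked call was lost without the pair of replicate 2 or 4 (edgeR adjusted p = 0.0949 and 0.209).

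Of the fibril-associated chains, which sit on the surface of fibrils, 7 of 9 rows were tested and 0 passed with or without the block (edgeR; 2 at an unadjusted p under 0.05 without it). Col12a1 had 2793, 2353, 2405 and 2969 CPM in 2n and 2330.1, 1779, 1006 and 1364 CPM in 4n (-0.70 ± 0.25 SE, edgeR adjusted p = 0.189, 0.0627 with the block). Its groups did not overlap, which held for 3.69% of all genes in this direction. Without 4n replicate 1 it fell by 0.93 (edgeR adjusted p = 0.0332). Col14a1 had 1299.8, 1787, 2425 and 1494 CPM in 2n and 1236, 1447, 1085 and 923 CPM in 4n, with 2n replicate 3 highest of all. Col16a1 had 456, 339, 397 and 418 CPM in 2n and 384, 333, 196 and 265 CPM in 4n, and its 4n replicates 3 and 4 were lowest. These 2 had log2 fold changes of -0.58 ± 0.22 and -0.45 ± 0.20 (SE, edgeR adjusted p = 0.228 and 0.296). Col8a1, a network-forming chain of vessels, had 259, 428, 352 and 483 CPM in 2n and 295, 301, 211 and 319 CPM in 4n (-0.44 ± 0.21 SE, edgeR adjusted p = 0.320), and its 4n replicate 1 was above its 2n partner. The remaining tested chains, Col7a1, Col8a2, Col9a2, Col9a3, Col17a1, Col20a1 and Col22a1, had log2 fold changes from -0.997 to 0.0097, and their edgeR adjusted p lay between 0.346 and 0.994.

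The pairs of libraries were not alike in the size of the difference. Within pairs, on log2(CPM + 0.1), the median over the 31 chains was -0.12, -0.17, -0.82 and -0.65 for replicates 1 to 4. Over the 9 fibrillar chains it was -0.15, -0.22, -0.85 and -0.73, so it was furthest below 0 in the pairs of replicates 3 and 4. Over all genes tested these medians lay between -0.017 and -0.00024. Over the fibroblast markers they were -0.33, -0.35, -0.94 and -0.50, and over the cardiomyocyte markers 2.24, 4.36, 5.54 and 3.79. Without 4n replicate 1, edgeR called 2 chains higher, Col4a4 and Col18a1, and 2 lower, Col12a1 and Col6a6, against 6.64% and 0.687% of all genes. With the block and without the pair of replicate 1, 3 chains were higher and 11 lower, against 9.65% and 3.07% of all genes. The 11 were Col5a2, Col5a3, Col11a1 and Col24a1 of the fibrillar chains, Col6a1, Col6a3 and Col6a6 of type VI, and Col7a1, Col8a1, Col12a1 and Col14a1. Col1a1 and Col3a1 were not among them, nor were Col4a1 and Col4a2. With the block and without the pair of replicate 2 or 4, edgeR called no gene of the table in either direction.

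**Figure D5:**
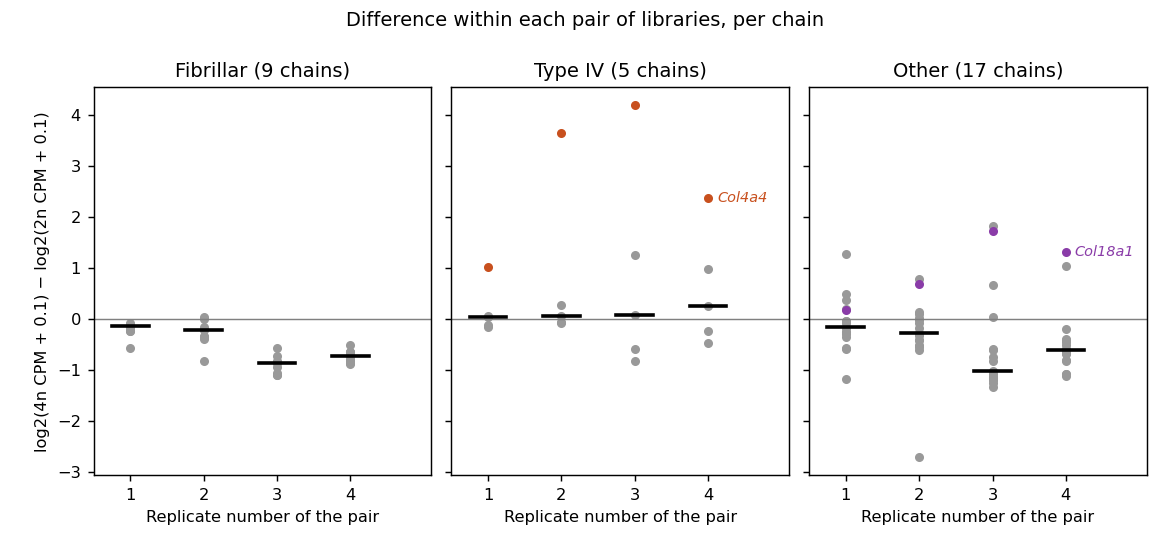
Difference within each pair of libraries on log2(CPM + 0.1), 4n minus 2n, for each tested fibrillar, type IV and other chain, with the median of each panel and pair as a bar. The fibrillar medians are nearest 0 in replicates 1 and 2, and Col4a4 and Col18a1 are above 0 in all 4 pairs.

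The variation over replicate numbers was tested in the model with group and number, where 4 of 31 chains differed (edgeR quasi-likelihood F test, adjusted p under 0.05), against 8.21% of all genes, so nothing particular to the chains is read from this count. They were Col6a6, Col11a2, Col20a1 and Col24a1 (edgeR adjusted p = 0.0210, 0.0363, 0.0412 and 0.0421), all of them scarce. Col20a1, a fibril-associated chain, had 3.05, 0.521, 0.636 and 5.54 CPM in 2n and 2.36, 0.967, 1.07 and 3.07 CPM in 4n, high in replicates 1 and 4 of both fractions and low in replicates 2 and 3. Col11a2 had 3.60, 1.39, 3.45 and 6.01 CPM in 2n and 3.06, 0.744, 2.29 and 3.36 CPM in 4n, lowest in replicate 2 of both fractions. Without replicate 4 none of these calls was left (edgeR, 0 of 30 chains), without replicate 2 only Col6a6 was, and without replicate 3 there were 10. The shares of all genes in these fits are not given here, so nothing particular to the chains is read from these counts either.

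Ratios of chains within a library do not depend on how the library is scaled, and 3 were compared between the fractions. For Col4a2 over Col4a1, the 2 chains of the common type IV trimer, the log2 ratio of counts was -1.08, -1.08, -1.18 and -1.19 in 2n and -1.04, -1.05, -0.94 and -0.96 in 4n. All 4n ratios were above all 2n ratios, with a difference of 0.13 (two-sided exact permutation p = 0.0286, the smallest that 4 against 4 libraries allow, or 0.0857 after adjustment over 3 ratios). For Col3a1 over Col1a1 it was -0.96, -0.32, -0.44 and -0.69 in 2n and -1.06, -0.56, -0.68 and -0.84 in 4n, lower in 4n in 4 of 4 pairs but with groups that overlapped widely (difference -0.18, two-sided exact permutation p = 0.371, or 0.457 after adjustment). For Col5a2 over Col5a1 it was -0.35, 0.12, -0.16 and 0.14 in 2n and -0.43, -0.045, -0.32 and 0.0032 in 4n (difference -0.13, two-sided exact permutation p = 0.457, or 0.457 after adjustment). In the last 2 ratios replicate 1 was lowest in both fractions. Within pairs an exact test by sign flips gave p = 0.125 for each ratio, the smallest that 4 pairs allow.

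The genes that make, handle and bind collagen were taken from 6 lists. Of 55 tested, 0 passed without the block (edgeR, 1 higher and 6 lower before adjustment), and with it 1 was higher and 1 lower (1 higher and 27 lower before adjustment). The shares of all genes given above for the chains hold here too. DESeq2 called 1 higher and 1 lower, and limma-voom called 0. Their median log2 fold change was -0.30, and 51 of the 55 were below 0. Among 16 hydroxylases, glycosyltransferases and their partners the median was -0.19, with 13 below 0 and 0 called. Plod2, the lysyl hydroxylase that prepares the cross-linking sites, had 1457, 957, 1209 and 1604 CPM in 2n and 1294, 818, 710.3 and 1127 CPM in 4n, lower in 4n in 4 of 4 pairs and lowest in 4n replicate 3 (-0.40 ± 0.23 SE, edgeR adjusted p = 0.404). P3h1, a prolyl hydroxylase, and the chaperone Fkbp10 had log2 fold changes of -0.25 ± 0.13 and -0.31 ± 0.18 (SE, edgeR adjusted p = 0.362 and 0.397). Among 11 genes of folding and export all were below 0, with a median of -0.23 and 0 called (edgeR, 3 before adjustment). Mia3, a receptor that loads procollagen into export carriers, came closest (-0.36 ± 0.12 SE, edgeR adjusted p = 0.165). It had 193, 175, 185 and 189 CPM in 2n and 159.6, 161, 131 and 129 CPM in 4n. Its groups did not overlap, which held for 3.69% of all genes in this direction. Sec23a, a coat protein of the same carriers, and Fkbp14 had -0.35 ± 0.13 and -0.37 ± 0.15 (SE, edgeR adjusted p = 0.222 and 0.261).

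Procollagen processing had 7 tested genes, all below 0, with a median of -0.31 and 0 called. The N-propeptidases Adamts2 and Adamts14 had -0.47 ± 0.23 and -0.40 ± 0.19 on the log2 scale, and Bmp1, which removes the C-propeptide, -0.19 ± 0.20 (SE, edgeR adjusted p = 0.321, 0.318 and 0.667). Of 5 cross-linking oxidases 0 were called, with a median of -0.29, and Loxl2 had 1054, 599.7, 871 and 851 CPM in 2n and 956, 453, 439 and 521 CPM in 4n, replicate 1 being highest in both fractions (-0.51 ± 0.28 SE, edgeR adjusted p = 0.382). Loxl1 and Loxl3 had -0.29 ± 0.18 and -0.22 ± 0.24 (SE, edgeR adjusted p = 0.447 and 0.673). Among 7 collagen receptors, Ddr1, a receptor tyrosine kinase that binds collagen, went the other way from the rest. It had 142, 130.4, 149 and 152 CPM in 2n and 187, 197, 327 and 220.2 CPM in 4n. The groups did not overlap, which held for 7.68% of all genes in this direction. With the block Ddr1 rose by 0.66 ± 0.13 (SE, edgeR adjusted p = 0.0403, and 0.0826 without it). This blocked call was lost without the pair of replicate 2 or 4 (edgeR adjusted p = 0.116 and 0.214), where edgeR called no gene. The receptors' median was -0.43. All 9 tested proteoglycans and glycoproteins that bind fibrils were below 0, with a median of -0.49, and Lum, or lumican, fell with the block by 0.59 ± 0.11 (SE, edgeR adjusted p = 0.0387, and 0.408 without it). Its blocked call was lost without the pair of replicate 2 or 4 (edgeR adjusted p = 0.107 and 0.204), where edgeR called no gene. Lum also stands in the fibroblast list, as do Dcn and Postn of this list, Ddr2 of the receptors and Lox of the oxidases. The collagen lists and the fibroblast markers are thus not separate sets of genes. Lum had 319, 339, 260.0 and 511 CPM in 2n and 211, 261, 136 and 376 CPM in 4n, and replicate 4 was highest in both fractions.

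Smooth muscle and pericyte markers summed to 6679.5 to 10992 CPM in 2n and 6153 to 11431 CPM in 4n, with 0 of 9 called (edgeR; 2 at an unadjusted p under 0.05). Macrophage, Schwann cell and epicardial markers summed to at most 12.5, 12.7 and 117 CPM in any library, with 0 called of 2, 2 and 5 tested, and at an unadjusted p under 0.05, 0, 0 and 2. At that unadjusted threshold 12.6% of all genes were higher and 4.82% lower.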

How the data were processed

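Alignment used HISAT2 2.0.4 and the build Rnor_6.0, per the submitters' processing notes. The counter, annotation release and strand setting were not given in the sources used here. Per the file headers, the authors deposited raw counts and FPKM values per gene and library. The deposited counts are whole numbers, and each FPKM equals the count over a constant per gene and over the library's total (8633 genes checked, tolerance 1 in 1000).

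Counts of all 30957 genes were analysed with edgeR 4.0.16 in R 4.3.3: filterByExpr (12983 genes kept), TMM scaling and a robust quasi-likelihood fit with the group as the factor, two-sided, with Benjamini-Hochberg adjustment over these genes and a threshold of 0.05. CPM values use TMM-scaled libraries. Standard errors are the log2 fold change over the root of F. Libraries of the same replicate number deviated together (correlations 0.43, 0.58, 0.27 and 0.65 for replicates 1 to 4, each library correlating best with its partner), and partners share the first part of their description, so libraries were treated as pairs. No protocol states the pairing. The blocked fit was an alternative, as were DESeq2 1.42.0, limma 3.58.1 (voom, and log2(FPKM + 0.1) or log2(FPKM + 1) for genes with a mean of at least 0.1 FPKM), other scalings, no filter, no mitochondrial genes, and leaving out libraries. No 2 libraries of a group agreed within sampling noise (chi-square per degree of freedom at least 36.7). The design text calls the replicates independent experiments. Depth was 14783521 to 21033772 counts per library, and intervals for counts of 0 cover counting error only. The tests were checked on simulated counts.

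The chains, gene lists and tests were chosen with earlier results of these data known. Values per library are given for chains with a mean of at least 100 CPM in a group, past the threshold with or without the block, or among the 3 smallest p-values, and from the other lists for members past the threshold or else up to 3 with the smallest p. Symbols in the lists were matched regardless of case, so that PCOLCE2 was found. Pecam1 and Sc65 matched no symbol. Coordinates and gene descriptions are those of the table.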

Additional observations from a re-analysis of the deposited data

Results flagged for a closer look

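In 54 groups of 4 values, 4 held a library whose gap to its nearest neighbour took up more of the group's range than Dixon's critical value for 4 values allows. Chance alone flags about 1 in 20 such groups. Col18a1 stood at 141 CPM in 2n replicate 3, below the other 2n libraries. Col5a3 stood at 476 CPM in 2n replicate 3, also below the rest. Col4a5 stood at 315 CPM in 4n replicate 3, above the other 4n libraries. The fibrillar share of counts was 5.08% in 2n replicate 4, the lowest of the 2n libraries.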

How the results depend on the processing

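The number of chains higher in 4n, 1 as reported, was 0 with the replicate block, with no filter, in limma-voom and on log2(FPKM + 1), and 2 in DESeq2. Of all genes tested, 4.27%, 1.54%, 0%, 1.21% and 5.05% were higher in these fits, in that order. Leaving out 1 library gave 0 to 2 higher and 0 to 2 lower, against 0% to 6.64% and 0% to 0.687% of all genes. Leaving out 1 pair with the block gave 0 to 3 higher and 0 to 11 lower, against 0% to 9.65% and 0% to 3.07%. EdgeR called no gene of the table without any 1 of the 2n libraries or without 4n replicate 4. The same held with the block without pair 2 or 4. The number lower, 0 as reported, was 2 with the block, against 0.608% of all genes. The chains that differed between replicate numbers, 4 as reported, numbered 0 to 10 on leaving out 1 replicate number. No share of all genes is set beside the counts on leaving out a replicate number. Nothing particular to the chains is read from any of these counts. The medians of the fibrillar and the other chains kept their sign under all 21 alternatives, from -0.76 to -0.38 and from -0.69 to -0.31. The type IV median, which is the value of Col4a5, was -0.14 with total count scaling, -0.13 on log2(FPKM + 0.1) and -0.13 on log2(FPKM + 1), and from -0.018 to 0.23 on leaving out 1 library. For Col4a5 itself the 4 values below 0 were these 3 and -0.018 without 4n replicate 3. LOC100909752, at -0.080, turned above 0 without the 2n library of replicate 2 (0.062) or the 4n library of replicate 3 (0.19), and with the block on leaving out pair 3 (0.073). Its values over 1 library left out ran from -0.30 to 0.19. The cause of these changes was not tested. Col4a4 was above 0 under all 21 alternatives, from 1.96 to 3.49, and passed in 8 of them. The 3 ratios and 4 shares kept their sign under all alternatives, and no ratio passed. With the pairing taken into account by the block, calls changed for Col4a4, Col6a6, Col24a1, LOC100911572, Ddr1 and Lum among the genes named from the chains and collagen lists.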
